A study of Mus musculus with 8 samples.

Results

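The homeobox genes described here are 34 transcription factor genes that pattern regions of the nervous system other than the dopaminergic midbrain, namely forebrain, hindbrain and ventral neural tube. They were listed by name, with earlier results of these data known, and each was found in the platform annotation with a single probe set, so that no choice between probe sets was needed and 34 of 34 members are covered out of 19938 genes with an unambiguous probe set. Levels are log2 values from RMA, a method that removes background, brings arrays to a common scale and combines the probes of a gene, for 8 Affymetrix Mouse Gene ST arrays in 4 groups, 2 arrays per group. The first 2 groups were GFP-positive mesodiencephalic dopaminergic (mdDA) neurons collected by fluorescence-activated sorting from ventral midbrain at E14.5 and at E13.5 of Pitx3GFP/+ embryos on a mixed C57BL/6 x 129/Ola background, in which one Pitx3 allele carries GFP. The other groups, both from E12.5 BAT-gal embryos (B6D2F1, mixed), were the mdDA domain, laser-microdissected where PITX3 and the WNT/b-catenin reporter b-GAL were stained, and the lateral domain, a region lacking both stains at the boundary of alar and basal plate. The reporter is a transgene with a minimal promoter behind LEF1/TCF binding sites, and tissue of 5 embryos was pooled for each domain. The arrays of a group are technical replicates, so all p-values measure technical spread and none the spread between embryos. Stage, genotype, strain and way of isolation, including the fixation and staining of the dissected tissue, all differ between sorted neurons and dissected domains and cannot be told apart.

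Homeobox genes encode transcription factors that bind DNA through a shared homeodomain, and their overlapping expression along the head-to-tail and back-to-belly axes gives neural progenitors a regional identity. *Emx*, *Dlx*, *Six3*, *Six6* and *Otx* genes are known from the forebrain (*Otx1* also from the midbrain), *Hox* genes from hindbrain and spinal cord, and *Nkx* and *Irx* genes from dorsoventral subdivision of the neural tube. Many of them are used again when neurons differentiate, as LIM homeobox genes are in motor neurons and interneurons.

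Starting with the sequence around their start sites, 26 of the 34 members had an entry in the RefSeq promoter table (build GRCm38.p6), with 30 windows of 300 bases, 250 before and 50 after the start. Because the mdDA domain was selected by a reporter with LEF1/TCF sites, the windows were searched for the core of such sites, CTTTG on either strand (CAAAG on the other), and for the homeodomain core TAAT (ATTA on the other strand). The LEF1/TCF core lay in 12 of the 30 member windows (40.0%), against 53.9% of all 32851 windows of the table. The homeodomain core lay in 16 of 30 (53.3%), against 58.0% of all windows, and the median GC content was 60.3% in the member windows and 52.7% in all. A match of so few letters is a description of the sequence and not a binding site. Windows are printed for the member that was higher in the mdDA domain (*Lhx4*), for 2 of those that were lower (*Prox1* and *Six3*) and for the member with the largest difference in sorted neurons (*Emx2*). They lie at chr1:155741978-155742277 (minus strand), chr1:190170778-190171077 (minus strand, one of 2 *Prox1* windows), chr17:85620584-85620883 (plus strand) and chr19:59458440-59458739 (plus strand), in that order, and capitals mark the LEF1/TCF core, which occurs once each in *Lhx4* and *Six3* and in neither of the other printed windows. The second *Prox1* window, which is not printed, holds the core once, and *Prox1* is therefore not without it.
Lhx4: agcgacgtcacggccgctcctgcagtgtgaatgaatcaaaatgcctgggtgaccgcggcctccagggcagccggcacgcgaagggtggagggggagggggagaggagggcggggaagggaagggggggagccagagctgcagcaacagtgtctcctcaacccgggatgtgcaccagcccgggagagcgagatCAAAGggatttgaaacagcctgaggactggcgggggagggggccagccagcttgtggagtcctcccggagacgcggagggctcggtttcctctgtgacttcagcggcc
Prox1: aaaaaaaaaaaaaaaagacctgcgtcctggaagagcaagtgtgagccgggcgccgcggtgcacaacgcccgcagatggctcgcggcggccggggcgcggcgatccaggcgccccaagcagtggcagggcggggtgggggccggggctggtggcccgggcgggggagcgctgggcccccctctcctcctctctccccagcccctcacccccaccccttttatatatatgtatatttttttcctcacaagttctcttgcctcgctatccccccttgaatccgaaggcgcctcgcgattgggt
Six3: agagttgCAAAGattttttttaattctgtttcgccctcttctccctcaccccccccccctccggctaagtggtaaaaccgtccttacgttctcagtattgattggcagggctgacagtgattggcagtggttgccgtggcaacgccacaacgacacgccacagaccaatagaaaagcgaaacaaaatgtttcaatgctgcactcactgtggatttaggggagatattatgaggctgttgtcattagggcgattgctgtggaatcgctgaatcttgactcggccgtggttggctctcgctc
Emx2: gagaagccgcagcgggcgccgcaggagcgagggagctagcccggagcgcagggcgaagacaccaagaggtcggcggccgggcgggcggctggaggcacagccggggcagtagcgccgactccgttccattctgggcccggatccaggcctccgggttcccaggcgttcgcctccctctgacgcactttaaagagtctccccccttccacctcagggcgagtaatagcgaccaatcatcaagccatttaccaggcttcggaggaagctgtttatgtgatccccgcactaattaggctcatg

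The arrays of a group correlated at 0.966 to 0.983 across probe sets, and the array medians were 4.39 in sorted neurons and 4.57 to 4.60 in the dissected domains. Of the 6 dopaminergic markers 5 were higher in the mdDA than in the lateral domain and 4 in sorted neurons than in the mdDA domain (neither *Nr4a2* nor *Pitx3*). *Pitx3*, whose protein or GFP allele defines the mdDA samples, was called in neither comparison and had log2 levels of 7.72 and 7.97 on the E14.5 arrays, 7.79 and 7.82 on the E13.5 arrays, 7.44 and 7.34 on the mdDA arrays and 6.96 and 6.47 on the lateral arrays. Neither its difference between the domains (0.67, limma adjusted p = 0.228) nor that between sorted neurons and the mdDA domain (0.44, adjusted p = 0.143) passed. The paper, in contrast, lists *Pitx3* among the transcripts enriched in the mdDA over the lateral domain at a false discovery rate of 10%. The reason for this disagreement was not tested. *Th*, which encodes tyrosine hydroxylase, had log2 levels of 10.47 and 10.61 on the E14.5 arrays, 10.58 and 10.57 on the E13.5 arrays, 9.28 and 9.12 on the mdDA arrays and 5.57 and 5.11 on the lateral arrays. The 2 glutamatergic, 2 measured serotonergic, 5 microglial and 5 meningeal markers had no call in either comparison. The deposited values hold no detection calls, and a reference for unexpressed genes was therefore taken from 1223 probe sets of olfactory, vomeronasal and trace amine receptor genes. Their 95th percentile lay between 3.99 and 4.42 on the 8 arrays, lower on the sorted arrays (3.99 to 4.11) than on the dissected arrays (4.28 to 4.42). A gene above it on both arrays of a group is called above the receptor range. Probe sets differ in affinity, so a gene above that range need not be transcribed and a gene within it need not be silent. *Pitx3* was above it in all 4 groups, the lateral domain included.

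By this measure 18 of 34 members were above the receptor range in E14.5 sorted neurons, 19 in E13.5 sorted neurons and 18 in each of the mdDA and lateral domains. The share of all genes above the range was 58.6%, 60.1%, 55.9% and 56.7% in the same groups, so that the members lay near the background in each. Above the range in all 4 groups were 16 members, namely *Irx1*, *Irx2*, *Irx5*, *Irx6*, *Nkx6-2*, *Emx1*, *Six3*, *Otx1*, *Otp*, *Lhx6*, *Lhx3*, *Lhx4*, *Hoxb1*, *Hoxb3*, *Evx2* and *Prox1*. *Irx4* was above it in 3 groups, and *Nkx2-2*, *Nkx2-9* and *Emx2* in 2. With the lower cut-off on sorted arrays, *Irx4* was above it at E14.5 (mean 4.21) but not in the lateral domain (mean 4.24). The 14 members above it in no group were *Nkx2-1*, the 4 *Dlx* genes, *Six6*, *Lhx8*, *Isl2*, *Hoxa2*, *Hoxa3*, *Hoxb2*, *Hoxb4*, *Evx1* and *Tlx3*. With the 99th percentile of the receptor genes in its place, 8, 12, 10 and 11 members were above it in E14.5 neurons, E13.5 neurons, the mdDA domain and the lateral domain. The share of all genes above this stricter cut-off was not counted, so these numbers have no background beside them and describe the members only.

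**Figure D1:**
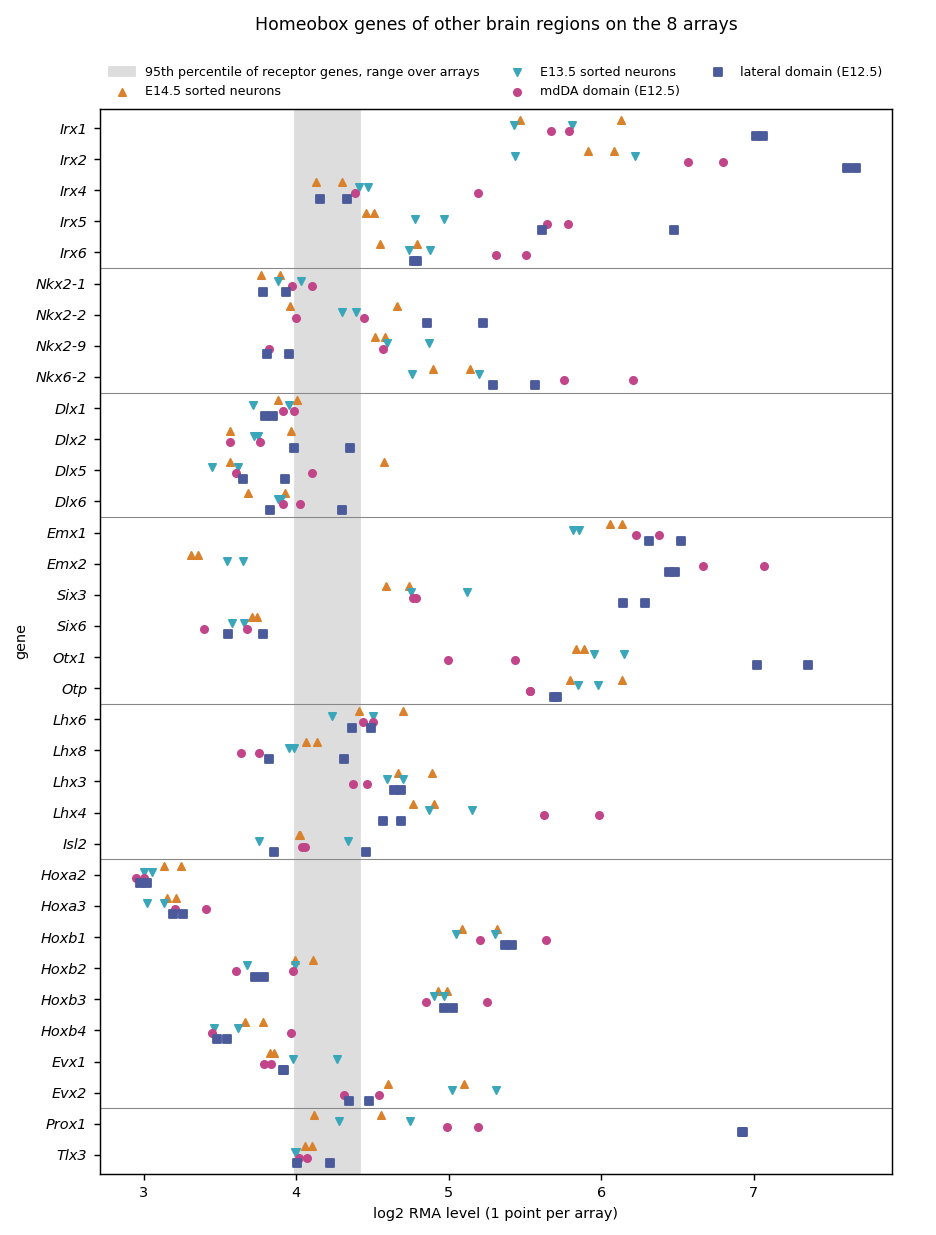
Log2 RMA levels of the 34 members (rows, grouped by family) on each of the 8 arrays, with one point per array and symbols for the 4 groups. The grey band spans the receptor 95th percentile over the arrays (3.99 to 4.42). *Emx2* separates sorted neurons from both domains, and *Irx1*, *Irx2*, *Six3*, *Otx1* and *Prox1* lie highest in the lateral domain.

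Between the domains, limma called 1 member higher and 4 lower in the mdDA domain at a false discovery rate of 10%. *Lhx4*, a LIM homeobox gene of motor neurons and pituitary, was higher, and *Prox1*, *Otx1*, *Six3* and *Irx1* were lower by 2.47-fold to 3.94-fold. Of all 35556 probe sets, 1.52% were higher and 1.10% lower at the same threshold. The median difference was -0.05 over the members and -0.01 over all probe sets, and the 29 members not called ranged from -0.96 to 0.63 on the log2 scale. With any 1 of the 4 arrays left out, which leaves a single array in 1 domain and no block, limma called none of the 34 members, and only 16 and 15 probe sets in all without mdDA replicate 1 and 2, and 135 and 170 without lateral replicate 1 and 2. The 5 differences kept their direction in each of these fits. This was fixed in advance, because the arrays of the domains did not overlap for these genes.

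In sorted neurons set against the mdDA domain, 3 members were higher and 7 lower. This balance depended on the scaling, with 8 members higher and 5 lower (and 5580 and 1782 of all probe sets) when each array was centred on its median. *Emx2*, a gene of the dorsal forebrain, had the largest measured difference (-3.41 on the log2 scale, against sorted levels within the receptor range), and *Nkx6-2*, *Irx5*, *Lhx4*, *Irx2*, *Irx6* and *Prox1* were also lower, while *Otx1*, *Evx2* and *Otp* were higher by 1.33-fold to 1.67-fold. Of all probe sets 8.53% were higher and 9.84% lower, and the median difference was -0.04 over the members and -0.08 over all probe sets. Among the 19938 genes with 1 probe set each, the balance was the other way, with 2055 higher and 1454 lower. The direction of the background thus depended on the set that was counted. Without mdDA replicate 1 the members called were 4 (*Emx2*, *Lhx4*, *Irx6* and, higher in sorted neurons, *Nkx2-9*) among 2037 probe sets in all, and without mdDA replicate 2 also 4 (*Emx2*, *Nkx6-2*, *Irx4* and, higher, *Otx1*) among 2792, in place of 6532 with all arrays. Without either lateral array, which then adds nothing to the spread, 6 were called (*Emx2*, *Lhx4*, *Nkx6-2*, *Irx5*, *Irx6* and *Otx1*) among 5059 probe sets. *Emx2* was the only member called in every one of these fits. Between E14.5 and E13.5 neurons limma called none of the 34 members, with a background of 0.00% higher and 0.00% lower, while 1 member and 2156 of 35556 probe sets had an unadjusted p below 0.05.

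**Figure D2:**
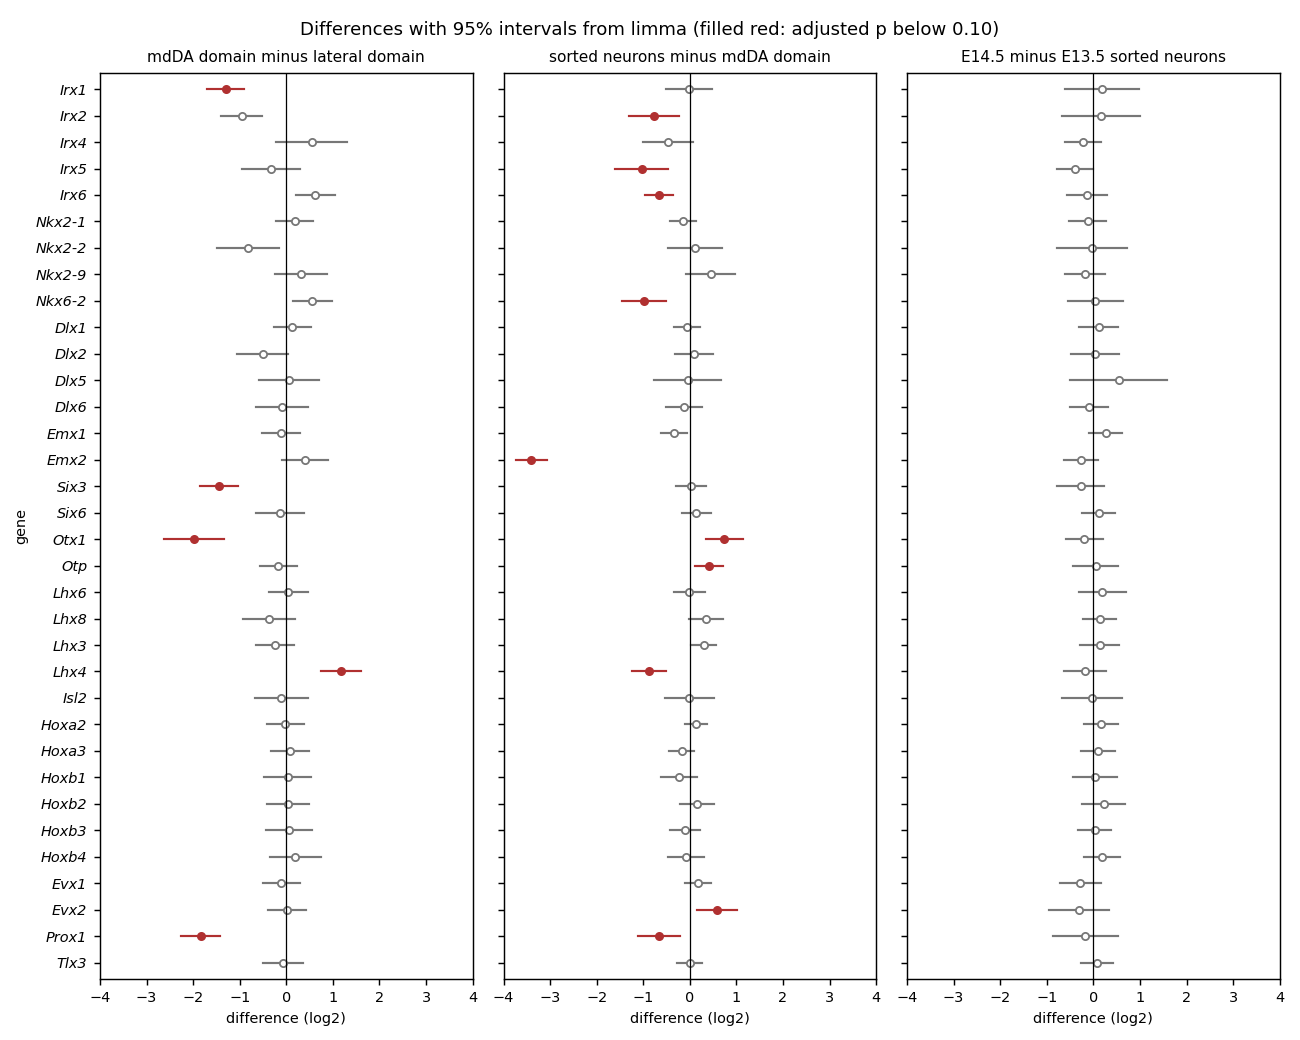
Differences of the 34 members on the log2 scale with 95% intervals from limma, for the mdDA minus the lateral domain, sorted neurons minus the mdDA domain and E14.5 minus E13.5 sorted neurons. Filled red points passed the 10% threshold (5, 10 and 0 members), and *Emx2* at -3.41 in the middle panel is the farthest from 0.

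The Iroquois genes (*Irx*), which subdivide the neural tube along both axes, lie in clusters. *Irx1*, *Irx2* and *Irx4* are neighbours on chromosome 13, and *Irx5* and *Irx6* on chromosome 8 beside *Irx3*, with no other protein-coding gene between them. Of the 5 members, 1 was lower in the mdDA than in the lateral domain and 3 were lower in sorted neurons than in the mdDA domain, or 2 when each array was centred on its median. Progenitor markers (6 of 6), erythroid markers (3 of 3 measured) and endothelial markers (2 of 4) were lower in sorted neurons as well, with values given beside *Emx2*, and the part of these cells in the Iroquois differences was not tested. The level of *Irx1* was 5.47 and 6.13 on the E14.5 arrays, 5.43 and 5.81 on the E13.5 arrays, 5.67 and 5.79 on the mdDA arrays and 7.01 and 7.06 on the lateral arrays. Both lateral arrays were above the other 6, which overlapped among themselves. *Irx1* was 2.47-fold lower in the mdDA than in the lateral domain (log2 difference -1.30, SE 0.15, limma adjusted p = 0.0623), and sorted neurons differed from the mdDA domain by less than the spread between arrays. *Irx2* had levels of 6.08 and 5.92 on the E14.5 arrays, 6.22 and 5.44 on the E13.5 arrays, 6.57 and 6.80 on the mdDA arrays and 7.67 and 7.61 on the lateral arrays. Its groups formed steps, with the lateral arrays highest, the mdDA arrays next and the sorted neurons lowest, the last with an E13.5 pair that spanned the E14.5 pair. The step between the domains (-0.96, SE 0.16, adjusted p = 0.112) missed the threshold but passed it without dim probe sets, with trend and robust priors and when only unambiguous probe sets were tested. The step between sorted neurons and the mdDA domain passed (-0.77, SE 0.22, adjusted p = 0.0766), but the call was lost under 9 of 17 alternatives. These were centring the arrays (-0.57, adjusted p = 0.152), only the 6 arrays compared or either lateral array left out (adjusted p = 0.126), a false discovery rate of 5%, and leaving out E14.5 replicate 1 or 2 (adjusted p = 0.107 and 0.130) or mdDA replicate 1 or 2 (adjusted p = 0.208 and 0.282).

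*Irx4* was at 4.13 and 4.30 on the E14.5 arrays, 4.41 and 4.47 on the E13.5 arrays, 5.19 and 4.38 on the mdDA arrays and 4.16 and 4.33 on the lateral arrays. Only mdDA replicate 1 stood apart, and the other mdDA array lay among the remaining groups. For *Irx5* the levels were 4.46 and 4.51 on the E14.5 arrays, 4.78 and 4.97 on the E13.5 arrays, 5.64 and 5.78 on the mdDA arrays and 5.61 and 6.48 on the lateral arrays. All sorted arrays were below all dissected ones, and the lateral arrays spanned the mdDA arrays. The difference of *Irx5* between sorted neurons and the mdDA domain was -1.03 (SE 0.24, adjusted p = 0.0404). This gene was also the 1 member below an unadjusted p of 0.05 between the stages, lower at E14.5 than at E13.5 by 1.31-fold, with an adjusted p of 0.822. *Irx6* read 4.55 and 4.79 on the E14.5 arrays, 4.74 and 4.88 on the E13.5 arrays, 5.31 and 5.50 on the mdDA arrays and 4.77 and 4.79 on the lateral arrays. Here the mdDA arrays were the highest and the lateral arrays lay among the sorted ones, so that the mdDA domain differed from the lateral domain by 0.63 (SE 0.15, adjusted p = 0.204) and sorted neurons from the mdDA domain by -0.67 (SE 0.12, adjusted p = 0.0230). The neighbour *Irx3*, which is known from the midbrain and is not a member, had levels of 4.62 and 5.22 on the E14.5 arrays, 5.16 and 5.64 on the E13.5 arrays, 6.09 and 5.80 on the mdDA arrays and 7.69 and 7.58 on the lateral arrays. It was lower in the mdDA than in the lateral domain (-1.69, adjusted p = 0.0453) and lower in sorted neurons than in the mdDA domain (-0.78, adjusted p = 0.0725).

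**Figure D3:**
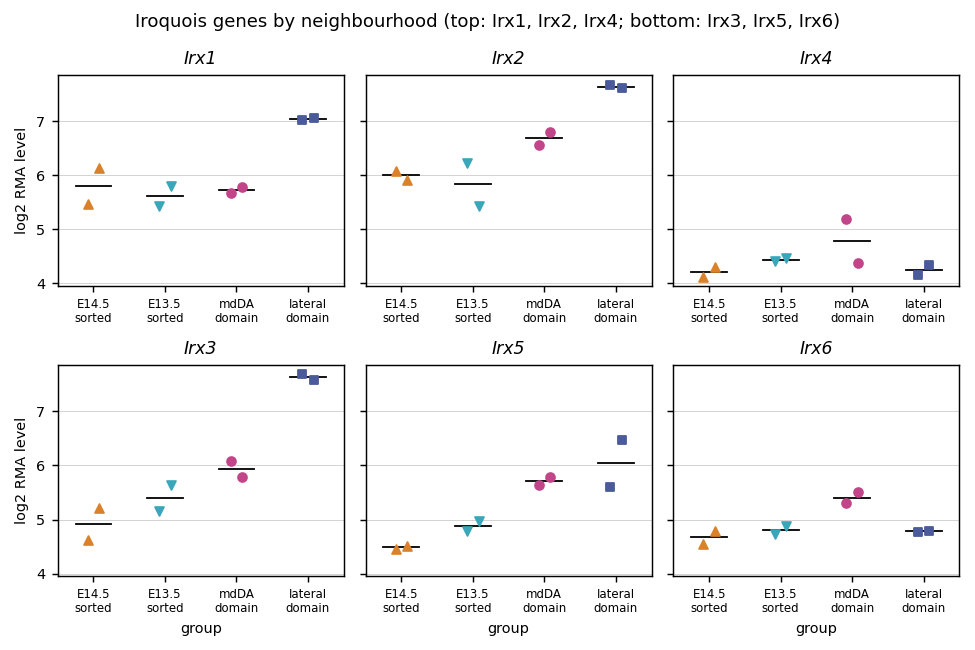
Log2 RMA levels of 6 Iroquois genes in the 4 groups, with one point per array and a bar at the mean of each pair. *Irx1*, *Irx2* and *Irx3* are highest on the lateral arrays (7.01 to 7.69), and *Irx6* on the mdDA arrays (5.31 and 5.50).

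Of the 4 NK genes, which specify ventral neural progenitors, none was called between the domains and 1 was lower in sorted neurons than in the mdDA domain. *Nkx6-2* had levels of 5.14 and 4.90 on the E14.5 arrays, 5.20 and 4.76 on the E13.5 arrays, 6.21 and 5.76 on the mdDA arrays and 5.56 and 5.29 on the lateral arrays. The mdDA arrays were the highest and the sorted arrays the lowest, with no overlap of the groups except between both stages. *Nkx6-2* was 1.98-fold lower in sorted neurons than in the mdDA domain (-0.98, SE 0.20, adjusted p = 0.0288), and its difference between the domains was 0.56 (SE 0.15, adjusted p = 0.243). *Nkx2-2* was at 3.96 and 4.66 on the E14.5 arrays, 4.39 and 4.30 on the E13.5 arrays, 4.45 and 4.00 on the mdDA arrays and 4.86 and 5.22 on the lateral arrays. The lateral arrays were above all others, but the difference of -0.82 between the domains did not pass (SE 0.25, adjusted p = 0.279). *Nkx2-9*, a gene of the ventral midline, had 4.52 and 4.58 on the E14.5 arrays, 4.87 and 4.59 on the E13.5 arrays, 4.57 and 3.82 on the mdDA arrays and 3.96 and 3.81 on the lateral arrays. One mdDA array lay among the sorted arrays and the other among the lateral ones, and neither comparison passed. *Nkx2-1*, the ventral forebrain and hypothalamic member and a neighbour of *Nkx2-9* on chromosome 12, lay between 3.77 and 4.10 on all arrays.

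The 4 *Dlx* genes, which mark GABAergic neurons and their progenitors in the forebrain, were above the receptor range in no group, between 3.45 and 4.58, and none was called. The highest of these values was a single array, E14.5 replicate 1 for *Dlx5*, whose other E14.5 array read 3.57. Beside these values the GABAergic markers *Gad1*, *Gad2* and *Slc32a1* were all lower in the mdDA than in the lateral domain and all higher in sorted neurons than in the mdDA domain. *Gad2*, which encodes a GABA-synthesizing enzyme, had 7.97 and 7.83 on the E14.5 arrays, 7.95 and 7.56 on the E13.5 arrays, 5.29 and 5.31 on the mdDA arrays and 8.45 and 8.23 on the lateral arrays. Its mdDA arrays were the lowest, and the sorted and lateral arrays did not overlap with them.

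Among the other forebrain genes the largest difference was that of *Emx2*. Its levels were 3.36 and 3.31 on the E14.5 arrays, 3.54 and 3.65 on the E13.5 arrays, 6.67 and 7.07 on the mdDA arrays and 6.49 and 6.45 on the lateral arrays. All 4 sorted arrays lay within the receptor range and all 4 dissected arrays well above it, with no overlap. *Emx2* was lower in sorted neurons than in the mdDA domain (-3.41, SE 0.14, adjusted p = 0.00054), and between the domains the difference of 0.40 did not pass. As the sorted level lay in the range of receptor genes, the measured ratio of 10.6 is set against a level that may be background, and no exact fold can be read from it. In bulk samples, fewer cells that express a gene and less RNA of it per cell cannot be told apart. Some markers of other cells were also lower in sorted neurons, by differing amounts. All 6 progenitor markers were lower in sorted neurons, with mean levels of 5.48 to 5.79 on the E14.5 arrays, 5.58 to 5.64 on the E13.5 arrays, 7.22 to 7.28 on the mdDA arrays and 8.33 to 8.34 on the lateral arrays. Their differences from the mdDA domain ranged from -3.66 to -0.74, and 4 of the 6 were above the receptor range at E14.5 and all 6 at E13.5. The 3 measured erythroid markers were lower too, with means of 3.85 to 4.15 on the sorted arrays and no dissected array below 8.81, and so were 2 of 4 endothelial markers. *Nes*, which encodes an intermediate filament of neural progenitors, was not above the receptor range at E14.5 and differed by -3.66 between sorted neurons and the mdDA domain. Between the domains, the progenitor means were higher on the lateral arrays, whereas *Emx2* was not. The part of progenitor, erythroid and endothelial cells in the difference of *Emx2* was not tested.

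**Figure D4:**
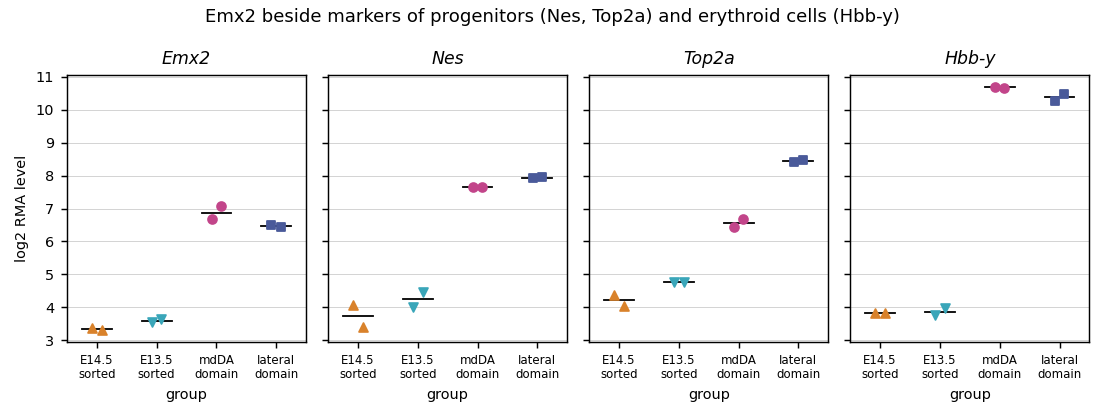
Log2 RMA levels of *Emx2*, of the progenitor markers *Nes* and *Top2a* and of the embryonic globin gene *Hbb-y* in the 4 groups, with one point per array and a bar at the mean of each pair. *Emx2* lies at 3.31 to 3.65 on the sorted arrays and at 6.45 to 7.07 on the dissected ones, and the marker genes are also lower on the sorted arrays. Of the 6 progenitor markers, *Nes* (-3.66) and *Top2a* (-2.07) had the largest differences between sorted neurons and the mdDA domain.

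*Emx1*, the paralogue of *Emx2*, had levels of 6.14 and 6.06 on the E14.5 arrays, 5.85 and 5.81 on the E13.5 arrays, 6.38 and 6.23 on the mdDA arrays and 6.52 and 6.31 on the lateral arrays. The sorted arrays were slightly below the dissected ones, by 0.34 against the mdDA domain, which did not pass (SE 0.11, adjusted p = 0.112). *Six3*, a gene of the rostral forebrain and eye, was at 4.59 and 4.74 on the E14.5 arrays, 5.12 and 4.75 on the E13.5 arrays, 4.78 and 4.76 on the mdDA arrays and 6.29 and 6.14 on the lateral arrays. Both lateral arrays were above the other 6, and *Six3* was 2.71-fold lower in the mdDA than in the lateral domain (-1.44, SE 0.15, adjusted p = 0.0586). *Six3* is also among the genes that the study selected on these arrays for its display of WNT-associated genes, so its direction is not independent evidence. Its paralogue *Six6* lay between 3.40 and 3.78 on all arrays.

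*Otx1*, a gene of forebrain and midbrain, had 5.83 and 5.88 on the E14.5 arrays, 5.95 and 6.15 on the E13.5 arrays, 4.99 and 5.43 on the mdDA arrays and 7.36 and 7.02 on the lateral arrays. The groups were separated in 3 steps, with lateral arrays highest, sorted arrays between and mdDA arrays lowest. *Otx1* was 3.94-fold lower in the mdDA than in the lateral domain (-1.98, SE 0.24, adjusted p = 0.0671) and 1.67-fold higher in sorted neurons than in the mdDA domain (0.74, SE 0.17, adjusted p = 0.0404). Its paralogue *Otx2*, which mdDA progenitors are known to require, was lower in the mdDA than in the lateral domain (-1.62, adjusted p = 0.0623), with a difference of 0.01 between sorted neurons and the mdDA domain. *Otp*, a factor of hypothalamic neuroendocrine neurons, was at 6.13 and 5.80 on the E14.5 arrays, 5.98 and 5.85 on the E13.5 arrays, 5.53 and 5.53 on the mdDA arrays and 5.71 and 5.69 on the lateral arrays. The sorted arrays were above all dissected ones, with a small difference to the mdDA domain of 0.41 (SE 0.13, adjusted p = 0.0939). This call was lost under 12 of 17 alternatives. Among these were the replicate block (adjusted p = 0.110), trend and robust priors (adjusted p = 0.138), only the 6 arrays compared or either lateral array left out (adjusted p = 0.147) and a minimum of 1.5-fold. The others were a false discovery rate of 5% and leaving out E14.5 replicate 1 (adjusted p = 0.141), E13.5 replicate 1 or 2 (adjusted p = 0.184 and 0.132) or mdDA replicate 1 or 2 (adjusted p = 0.298 and 0.255).

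The LIM homeobox genes gave 1 call between the domains and 1 between sorted neurons and the mdDA domain, both for *Lhx4*. Its levels were 4.76 and 4.90 on the E14.5 arrays, 4.87 and 5.15 on the E13.5 arrays, 5.62 and 5.98 on the mdDA arrays and 4.57 and 4.69 on the lateral arrays. Both mdDA arrays were above the other 6. *Lhx4* was 2.26-fold higher in the mdDA than in the lateral domain (1.17, SE 0.16, adjusted p = 0.0739) and 1.84-fold lower in sorted neurons than in the mdDA domain (-0.88, SE 0.15, adjusted p = 0.0182). Motor neuron markers were also highest on the mdDA arrays, with mean levels over 6 measured genes of 3.56 to 3.74 on the E14.5 arrays, 3.55 to 3.61 on the E13.5 arrays, 4.35 to 4.42 on the mdDA arrays and 3.65 to 3.76 on the lateral arrays. *Isl1* and the choline transporter gene *Slc5a7* were called higher in the mdDA than in the lateral domain (1.52 and 1.00), whereas *Chat*, *Phox2a* and *Mnx1* were above the receptor range in no group. The part of such cells in the level of *Lhx4* was not tested. *Lhx3*, which acts with *Lhx4* in motor neurons, had levels of 4.89 and 4.67 on the E14.5 arrays, 4.59 and 4.70 on the E13.5 arrays, 4.47 and 4.37 on the mdDA arrays and 4.64 and 4.68 on the lateral arrays. The mdDA arrays were the lowest, opposite to *Lhx4*, and neither comparison passed (-0.25 between the domains and 0.29 between sorted neurons and the mdDA domain). *Lhx6*, a gene of forebrain interneurons, was at 4.41 and 4.70 on the E14.5 arrays, 4.24 and 4.50 on the E13.5 arrays, 4.50 and 4.44 on the mdDA arrays and 4.36 and 4.49 on the lateral arrays, with all groups overlapping. *Lhx8*, of forebrain cholinergic neurons, and *Isl2*, of motor neurons, lay between 3.63 and 4.46 and were not called.

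Of the hindbrain and spinal cord members, none of the 6 *Hox* genes passed in any comparison, and their differences between the domains together with those of the *Evx* genes lay between -0.11 and 0.19. *Hoxb1*, known from rhombomere 4, had 5.09 and 5.31 on the E14.5 arrays, 5.05 and 5.30 on the E13.5 arrays, 5.64 and 5.20 on the mdDA arrays and 5.37 and 5.42 on the lateral arrays. *Hoxb3* had 4.99 and 4.93 on the E14.5 arrays, 4.90 and 4.97 on the E13.5 arrays, 5.25 and 4.85 on the mdDA arrays and 4.97 and 5.03 on the lateral arrays. For both genes the mdDA arrays spanned the lateral arrays. *Hoxa2*, *Hoxa3*, *Hoxb2* and *Hoxb4* stayed between 2.95 and 4.11 on all arrays. Outside the members, 31 further *Hox* genes of the 4 clusters were measured, and none passed in either comparison, with 2, 3, 2 and 1 above the receptor range in E14.5 neurons, E13.5 neurons, the mdDA domain and the lateral domain. *Hoxd10* was above it in 3 groups but not in the lateral domain, where its mean of 4.32 exceeded those at E14.5 (4.27) and E13.5 (4.13). *Hoxa4* was above it in all 4, at 4.96 and 4.78 on the E14.5 arrays, 4.99 and 4.93 on the E13.5 arrays, 4.98 and 4.69 on the mdDA arrays and 5.17 and 5.05 on the lateral arrays.

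*Evx2*, which lies beside the *HoxD* cluster and is known from spinal interneurons, was the exception among the posterior genes, at 5.10 and 4.60 on the E14.5 arrays, 5.31 and 5.02 on the E13.5 arrays, 4.54 and 4.31 on the mdDA arrays and 4.48 and 4.34 on the lateral arrays. All sorted arrays were above all dissected ones, and the difference between sorted neurons and the mdDA domain was 0.58 (SE 0.18, adjusted p = 0.0909). The call was lost under 11 of 17 alternatives. Among these were trend and robust priors (adjusted p = 0.103), only the 6 arrays compared or either lateral array left out (adjusted p = 0.14) and a minimum of 1.5-fold. The others were a false discovery rate of 5% and leaving out E14.5 replicate 1 (adjusted p = 0.13), E13.5 replicate 1 or 2 (adjusted p = 0.18 and 0.106) or mdDA replicate 1 or 2 (adjusted p = 0.208 and 0.324). *Evx1* lay between 3.79 and 4.27 and was not called.

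*Prox1*, a factor of differentiating neurons and lymphatic vessels, had 4.55 and 4.12 on the E14.5 arrays, 4.28 and 4.75 on the E13.5 arrays, 5.19 and 4.99 on the mdDA arrays and 6.92 and 6.93 on the lateral arrays. The lateral arrays nearly coincided and lay far above the rest, the mdDA arrays were next and the sorted arrays lowest, without overlap. *Prox1* was 3.57-fold lower in the mdDA than in the lateral domain (-1.84, SE 0.15, adjusted p = 0.0447), the only member past a false discovery rate of 5% in this comparison. In sorted neurons it was 1.59-fold lower than in the mdDA domain (-0.67, SE 0.19, adjusted p = 0.0709), a call that was lost under 11 of 17 alternatives. Among these were repeated quantile normalization (-0.50, adjusted p = 0.152), centring the arrays (-0.47, adjusted p = 0.154), the replicate block (adjusted p = 0.109) and only the 6 arrays compared or either lateral array left out (adjusted p = 0.12). The others were a false discovery rate of 5% and leaving out E14.5 replicate 2 (adjusted p = 0.11), E13.5 replicate 1 (adjusted p = 0.126) or mdDA replicate 1 or 2 (adjusted p = 0.315 and 0.167). *Tlx3*, which selects glutamatergic fate in the dorsal spinal cord, lay between 3.99 and 4.22 and was not called.

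Cell markers also differed along with the genes that were lower in the mdDA than in the lateral domain (*Irx1*, *Six3*, *Otx1* and *Prox1*). All 3 GABAergic markers were lower in the mdDA domain, with mean levels of 4.77 to 5.02 on the mdDA arrays and 7.26 to 7.39 on the lateral arrays, and 3 of 6 progenitor markers (*Sox2*, *Mki67* and *Top2a*) were lower as well. The genes that were higher in sorted neurons than in the mdDA domain (*Otx1*, *Evx2* and *Otp*) went with 3 of 3 GABAergic markers higher, at mean levels of 6.76 to 6.85 on the E14.5 arrays, 6.65 to 6.97 on the E13.5 arrays and 4.77 to 5.02 on the mdDA arrays. In the same comparison 4 of 6 dopaminergic markers were higher as well. Of the genes named so far, only *Otx1* went with the GABAergic markers in both comparisons. Between the domains *Evx2* (0.02) and *Otp* (-0.17) were not called. In sorted neurons against the mdDA domain *Irx1* (-0.02) and *Six3* (0.03) were not called, and *Prox1* was lower (-0.67). The 7 genes that were lower in sorted neurons went with lower progenitor, erythroid and endothelial markers (6 of 6, 3 of 3 and 2 of 4) and with 3 of 6 motor neuron markers lower. The part of these cells in the differences was not tested.

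Homeobox genes known from the midbrain were set beside the members. Of 19 measured, 6 were higher and 6 lower in the mdDA than in the lateral domain, among them *En1* (3.42), *En2* (3.17), *Meis2* (-3.09) and *Dbx1* (-4.19). In sorted neurons against the mdDA domain 1 was higher and 8 were lower, with *Lhx1* (-3.02) and *Pou4f1* (-2.91), a gene of the red nucleus, having the largest differences. A further list outside the members held 16 measured homeobox genes of the forebrain or related to such genes, *Dlx3* being among the relatives. Of these, 3 were lower in the mdDA than in the lateral domain, namely *Lhx2* (-5.17), *Lhx9* (-4.66) and *Barhl2* (-2.87). *Lhx2*, known from forebrain and eye, had 6.76 and 6.97 on the E14.5 arrays, 7.37 and 6.83 on the E13.5 arrays, 4.21 and 5.05 on the mdDA arrays and 9.75 and 9.84 on the lateral arrays. It was higher in sorted neurons than in the mdDA domain (2.35, limma adjusted p = 0.0064), as was *Lhx9* (1.09), and *Dlx3* was lower (-0.38). Neither *Lhx2* nor *Lhx9* was above the receptor range in the mdDA domain, nor *Lhx1* at E14.5. The sizes of their differences are therefore set against levels that may be background. These lists were chosen with results of the arrays known and serve only as a description beside the 34 members.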

How the data were processed

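Per probe set, the deposited values are on the log2 scale. The authors ran RMA with sketch-quantile normalization (Affymetrix Expression Console 1.2), and nothing was rescaled here. Arrays carry no read depth, and their number limits the precision. A genome build is not given in the sources used here, and promoter sequences and gene order are those of RefSeq (GRCm38.p6). Of 35556 probe sets, 21789 had 1 gene symbol, 1621 several and 12146 none in the table used. A gene is represented by the probe set with the highest mean, and no member had several. Groups and replicate numbers came from the sample labels.

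The domains were compared by limma 3.58.1 (R 4.3.3) on their 4 arrays with the replicate number as block (1 residual degree of freedom), because the methods name a paired test. Sorted neurons (mean of both stages) were compared with the mdDA domain over all 8 arrays, and the stages with each other over 4 arrays, without block. P-values were adjusted by Benjamini-Hochberg over the whole array, at 10%. The fits were tested on simulated data with independent noise and no replicate effect. Such data cannot show how reliable the calls on these technical replicates are. Members and lists were chosen with earlier results of these data known. Named in full are members called or above the receptor range, and of other lists up to 4 genes by size of difference. Listed genes without an unambiguous probe set were not analysed here. Alternatives were other normalizations, filters, priors, thresholds, blocks, sets of arrays and each array left out. Other software was matplotlib 3.10.9, numpy 2.4.6, pandas 2.3.3 and Python 3.11.15.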

Additional observations from a re-analysis of the deposited data

How the results depend on the processing

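None of the differences of called members changed sign under any alternative that was run. For most alternatives this was fixed in advance. Other blocks, priors, thresholds and filters leave the difference itself unchanged. Leaving out an array could not reverse it, because the compared arrays did not overlap for these genes. Only repeated normalization and centring could have changed a sign. Between the domains 5 members and 931 of 35556 probe sets passed, against 9 members (adding *Irx2*, *Nkx2-2*, *Nkx6-2* and *Irx6*) and 2502 of 21789 probe sets when the test was limited to unambiguous ones, 1 and 227 at a false discovery rate of 5%, and 0 to 0 members with each array left out. Without the replicate block 6 passed (adding *Irx2*), and the calls over all probe sets were 829 higher and 605 lower in place of 541 and 390. Between sorted neurons and the mdDA domain 10 members and 6532 probe sets passed, against 6 and 5059 with only the 6 arrays compared, 6 and 3935 at a false discovery rate of 5% and 4 to 8 members with each array left out. With the replicate block 8 passed (without *Otp*, adjusted p = 0.110, and *Prox1*, adjusted p = 0.109). Same-numbered arrays did not deviate together (correlations of -0.04 to 0.01), so the numbers may not pair the arrays. Centring each array on its median moved the median difference of all probe sets from -0.08 to 0.12, the calls from 46.4% to 75.8% higher and the members called to 13 (8 higher and 5 lower), with *Emx2* at -3.21. Calls over all probe sets were then 5580 higher and 1782 lower, in place of 3032 and 3500. Between the stages no alternative called a member, and with all 8 arrays in the fit 9 probe sets were higher and 11 lower. At the 99th percentile of receptor genes 8, 12, 10 and 11 members lay above it in E14.5 neurons, E13.5 neurons, the mdDA domain and the lateral domain, without a count of all genes for comparison. The cause of these changes was not tested, apart from fewer arrays or fewer probe sets in the fits that leave some out. No member had several probe sets, so the choice between probe sets could not be varied.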

Other observations

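Regional transcription factors without a homeobox were set beside the members. Of 15 measured, 1 was higher and 4 were lower in the mdDA than in the lateral domain. *Sim1*, a gene of ventral neural tube and hypothalamus, was higher (1.78), and *Tal2* (-4.97), *Gata3* (-3.98), *Nr2f1* (-1.93) and *Gata2* (-1.82) were lower. *Gata3*, a factor of midbrain GABAergic neurons, was higher in sorted neurons than in the mdDA domain (0.88), and *Nr2f2* (means of 7.06 at E14.5, 7.10 at E13.5 and 9.08 in the mdDA domain), *Sim1* (-1.84), *Nr2f1* (-0.91) and *Tbx20* (-0.67) were lower. *Tbx20* was above the receptor range in no group, *Tal2* not in the mdDA domain and *Sim1* neither at E14.5 nor in the lateral domain. The sizes of these differences are therefore set against levels that may be background.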
